A study of Mus musculus with 12 samples.

Results

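The unfolded protein response of regulatory T cells was described here through 10 genes, Hspa5, Hsp90b1, Calr, Pdia3, Pdia4, Dnajb9, Herpud1, Xbp1, Atf4 and Ddit3. They were chosen by symbol, and the Ensembl identifiers of all 10 were found among the 21839 genes of the count table. All 10 passed the filter on low counts, which kept 11766 genes. The study compared sorted T cells of mice that lack autophagy in their dendritic cells with those of littermates, in 12 libraries. The TG mice were Atg5 flox/flox with a CD11c Cre (+/-). Cre made under the CD11c promoter is meant to remove Atg5, a gene needed for autophagy, from CD11c-expressing cells. Whether Atg5 stayed intact in the sorted T cells was not tested. The WT mice were Atg5 flox/flox without the Cre (-/-). Both genotypes share the loxP-flanked Atg5 and the C57BL/6 strain, and the labels give no age. From spleen and inguinal, cervical and brachial lymph nodes, CD4+ CD62L+ cells were taken with either high or low surface CD25, the alpha chain of the interleukin-2 receptor. This gave 4 groups of 3 libraries, TG High, WT High, TG Low and WT Low, and since no label ties the 3 to different animals, a p-value here speaks of the spread between libraries, which may be technical. No stain for Foxp3, the transcription factor that defines regulatory T cells, is given for the gates, and CD62L marks naive and central cells, so cells that lost CD62L on activation are outside both gates.

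The libraries held 6767828 (TG High replicate 2) to 23942479 counts. Foxp3 averaged 1525 ± 114 CPM in TG High, 1550.0 ± 106 in WT High, 1140.0 ± 48.7 in TG Low and 1086 ± 101 in WT Low (SD, n = 3), where CPM is the TMM-scaled count per 1000000 counts. Il2ra, which encodes CD25, averaged 1183 ± 67.9, 1190.0 ± 118, 593 ± 108 and 589.5 ± 131 CPM in the same order. Foxp3 was present in all 4 groups, and Il2ra was higher in both CD25 High groups than in their CD25 Low counterparts. Libraries with the same replicate number varied together across groups, and each difference is therefore given without and, where it matters, with the replicate number as a block.

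Proteins that enter the endoplasmic reticulum are folded there by chaperones such as BiP (Hspa5), GRP94 (Hsp90b1) and calreticulin (Calr), and by protein disulfide isomerases. When unfolded proteins build up, 3 sensors of the membrane respond: IRE1 splices the Xbp1 messenger RNA, PERK slows translation and so favours ATF4 and CHOP (Ddit3), and ATF6 is cut to release a transcription factor. XBP1 and ATF6 switch on the chaperones and the machinery that removes misfolded proteins. In T cells the response is known to be engaged after activation, when protein synthesis increases.

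The sequences through which this response acts are shown first, because the members differ in which of them they carry. The ER stress response element (ERSE, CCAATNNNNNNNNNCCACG) is the site of ATF6 together with the CCAAT-binding factor NF-Y. It was searched on both strands in promoter windows of 300 bases (RefSeq, GRCm38.p6, from 250 before to 50 after the transcription start). Of 32851 windows 0.119% held it, and among the 10 genes Hspa5, Hsp90b1 and Calr did, with 2 copies in Hsp90b1. Without its last letter the motif was in 0.365% of windows and in 6 of the 10 genes, Pdia3, Pdia4 and Herpud1 being added. ERSE-II (ATTGG and CCACG with 1 base between) was in 0.0365% of windows and in Herpud1. Each line below is the gene's own strand, with the fixed letters of the motif in capitals. Where the capitals read CGTGG or GTGG before ATTGG, the element lies on the opposite strand.
Hspa5, chr2:34772020-34772048, plus strand: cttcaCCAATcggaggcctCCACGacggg
Hsp90b1, chr10:86705633-86705661, minus strand: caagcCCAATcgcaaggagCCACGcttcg
Hsp90b1, chr10:86705528-86705556, minus strand: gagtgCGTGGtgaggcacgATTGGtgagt
Calr, chr8:84847070-84847098, minus strand: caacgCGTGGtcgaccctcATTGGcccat
Pdia3, chr2:121413868-121413895, plus strand: cgcagCCAATcggcggctgCCACactgc
Pdia4, chr6:47813597-47813624, minus strand: accgaGTGGcagcccgtgATTGGtggtc
Herpud1, chr8:94386372-94386428, plus strand: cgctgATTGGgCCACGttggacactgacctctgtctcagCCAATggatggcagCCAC

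The Herpud1 line shows the ERSE-II first and the shortened ERSE after it. In the GENCODE vM21 annotation, whose outermost starts lie upstream of those of RefSeq for Hspa5 and Pdia3, the matches of these genes fall inside the first exon, in the 5′ UTR. The outermost GENCODE starts of Hsp90b1, chr10:86705509, and Calr, chr8:84846934, also lie upstream of those of RefSeq. The matches of these 2 genes remain before both starts, at distances that depend on the annotation. For Pdia4 the outermost GENCODE start, chr6:47813430, lies downstream of that of RefSeq. The bases checked after its RefSeq start were in no GENCODE transcript of the gene, so the distance of its match from the start depends on the annotation. The core of the XBP1 site (UPRE core, TGACGTG) was in 2.01% of windows and in Hspa5. The C/EBP-ATF response element (CARE, TGATGNAA), a site of ATF4, was in 3.97% of windows and in Herpud1. The windows of Xbp1, Atf4, Ddit3 and Dnajb9 held none of these letters, which says nothing of other sites. Every ERSE is also counted under the shortened motif.

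**Figure D1:**
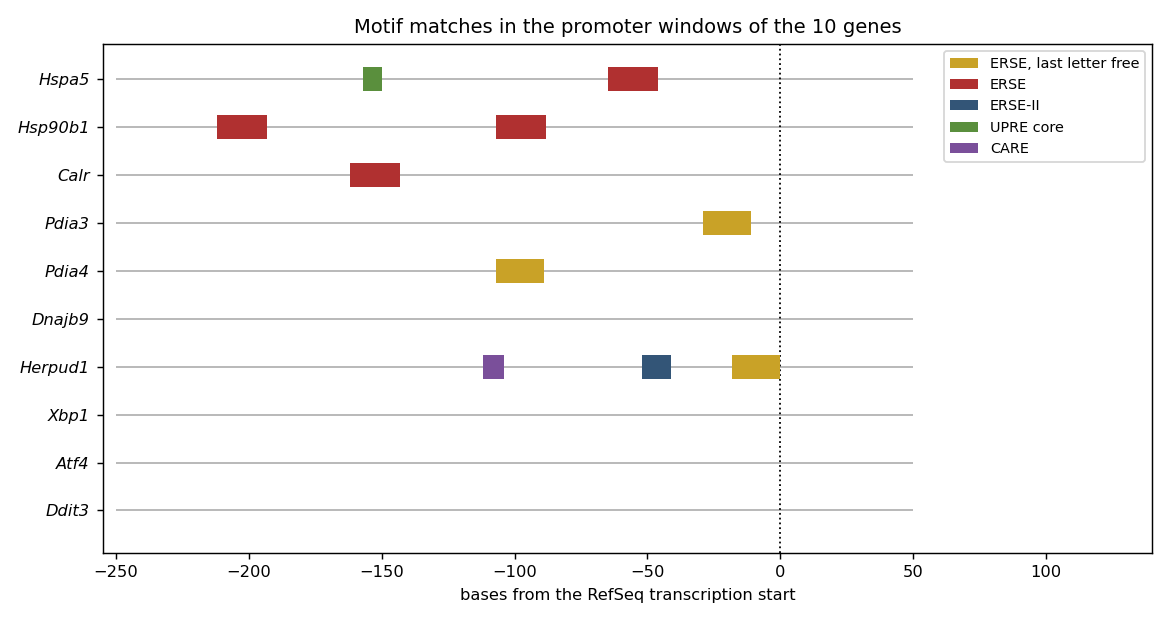
Positions of the motif matches along the promoter windows of the 10 genes, in bases from the RefSeq transcription start (dotted line); each grey line is a window from 250 before to 50 after the start and each coloured block a match on either strand. The 5 genes of ER chaperones and disulfide isomerases and Herpud1 hold an ERSE or its shortened form, while 4 windows are empty.

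Xbp1 itself is read in 2 forms. IRE1 removes 26 bases from exon 4 at chr11:5524279-5524304 (GRCm38), and in the GENCODE transcript this lengthens the reading frame from 267 to 371 codons. The line below gives this stretch, chr11:5524267-5524316 on the plus strand, with the removed bases in capitals. Counts per gene add both forms together, so the Xbp1 values here say nothing of its splicing.
Xbp1: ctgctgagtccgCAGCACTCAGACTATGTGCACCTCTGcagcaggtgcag

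Per length, the foldases and chaperones stood at the top of the 10 genes. Pdia3, a disulfide isomerase that works on glycoproteins, had 271 ± 29.8 CPM per kb of exon over the 12 libraries (SD), and Calr, the lectin chaperone it works with, had 215 ± 22.3. Hspa5, the luminal HSP70 that also holds the sensors inactive, had 159.5 ± 19.7 CPM per kb. These 3 levels were separate by more than their SDs. Hsp90b1, the luminal HSP90, had 117 ± 19.7 CPM per kb and Pdia4, a further disulfide isomerase, had 108 ± 12.6. These neighbours did not differ beyond their spread. Herpud1, a membrane protein of ER-associated degradation, had 70.8 ± 5.28, Atf4, the effector of the PERK branch, 60.1 ± 10.97, and Xbp1 51.7 ± 3.93 CPM per kb. Atf4 overlapped both of its neighbours in this order. Ddit3 with 16.7 ± 2.15 and Dnajb9, an HSP40 cochaperone of BiP, with 9.89 ± 1.154 CPM per kb were lowest. By CPM, Pdia3 ranked 97th of the tested genes and Hspa5 143rd, while Ddit3 (rank 6434) and Dnajb9 (rank 6746) were in the lower part.

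The members also varied to different degrees. The highest library was 1.22 times the lowest for Herpud1 and 1.84 times for Atf4, the ends of the range. The SD of log2 CPM over the 12 libraries was 0.11 for both Herpud1 and Xbp1 and 0.27 for Atf4. Of all tested genes 12.4% varied less than Herpud1 and 65.3% less than Atf4. Together the 10 genes took 0.299% of the counts in WT Low replicate 3 and 0.387% in TG Low replicate 1, the lowest and highest shares.

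**Figure D2:**
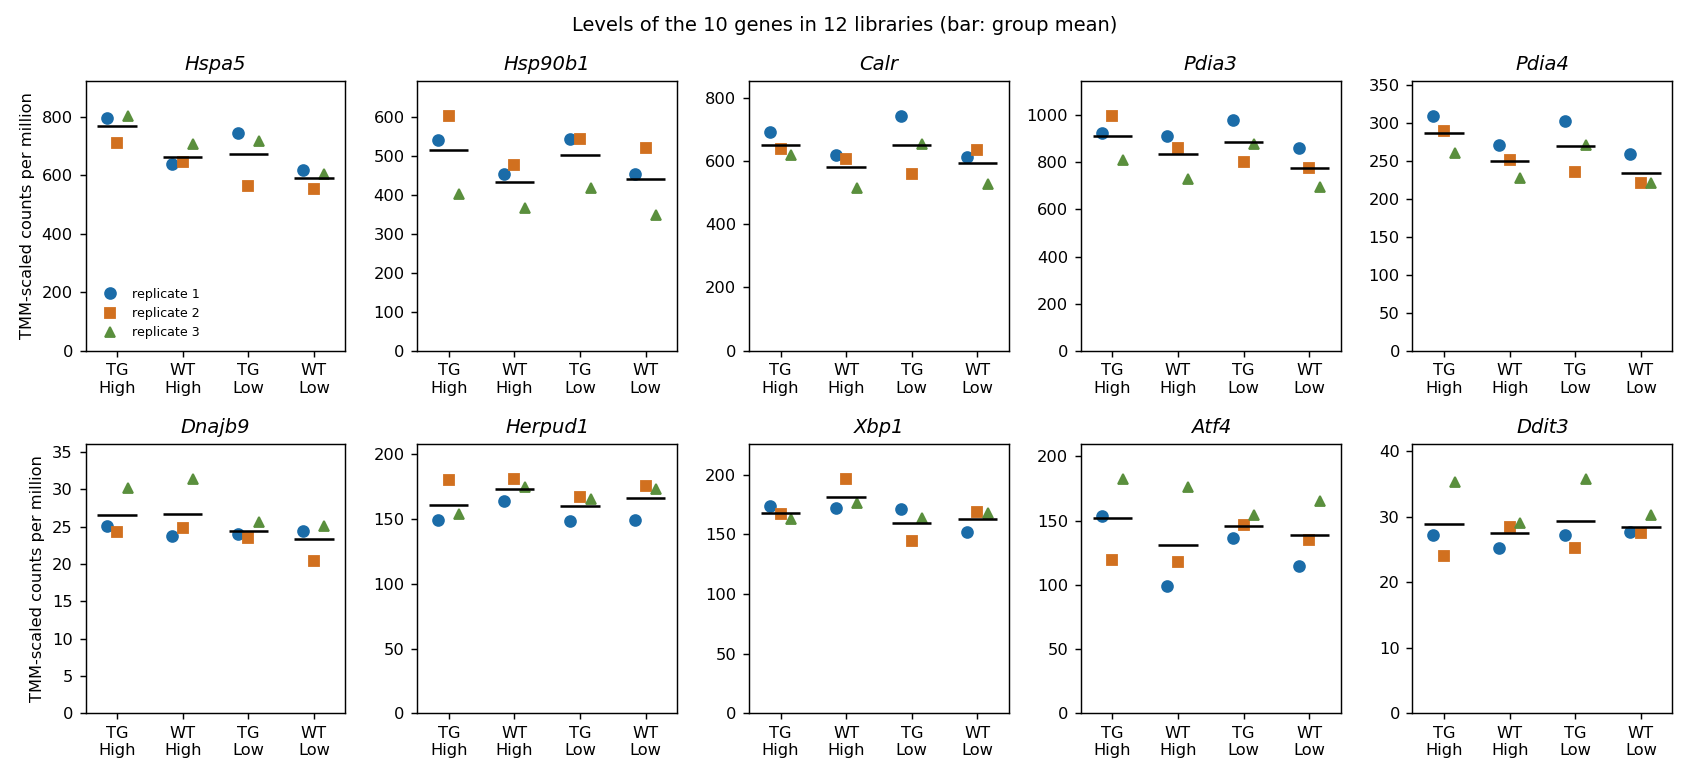
Level of each of the 10 genes in TMM-scaled CPM (linear axes from 0), with 1 point per library, TG left of WT within each gate, marker shape by replicate number and a bar at the group mean (n = 3). Group means lie close together, and for Hsp90b1 and Atf4 the libraries of replicate 3 stand at opposite ends.

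The first comparison asks whether removing Atg5 in CD11c-expressing cells goes with a different ER stress programme in the T cells. No member passed the threshold between TG and WT, in either gate. The 3 chaperones and the 2 disulfide isomerases had higher fitted values in TG in both gates, by 1.09 to 1.19 times, and none of these differences was called. In edgeR's quasi-likelihood test with an adjusted p under 0.05, 0 of 10 members and 0.0% of all genes were called in CD25 High, and 0 of 10 and again 0.0% in CD25 Low. With the replicate block the same counts were 0 of 10 and 0.0% in each gate. At an unadjusted p under 0.05, no member passed without the block, and 3 in CD25 High and 4 in CD25 Low passed with it. DESeq2 called no member. Over all genes, 99 (High) and 48 (Low) had an unadjusted p under 0.05 without the block, 418 and 382 with it, and DESeq2 called 0 and 0 without and 7 and 2 with the block.

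Hspa5 had 795, 709.5 and 801.5 CPM in TG High, against 639, 646 and 705 CPM in WT High. The lowest TG library lay just above the highest WT library, so the groups did not overlap. Hspa5 was the 1 member of 10 without overlap in this gate, where 4.27% of all genes did not overlap in either direction. Its fitted log2 difference was 0.21 ± 0.11 (SE, edgeR), a fold of 1.16 with a 95% interval from 0.984 to 1.36 and an adjusted p of 1.0. The replicate block left it at 0.21 ± 0.08 (adjusted p = 0.999). In CD25 Low, Hspa5 had 743, 562 and 716.5 CPM in TG, against 617, 554 and 604 CPM in WT, and the second TG library lay among the WT ones. The log2 difference there was 0.19 ± 0.11 (edgeR, adjusted p = 1.0). No member of 10 was without overlap in CD25 Low, against 3.3% of all genes.

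Hsp90b1 had 541, 601 and 402 CPM in TG High, against 454, 476 and 366 CPM in WT High. Within each replicate number the TG library was higher, yet the numbers differed more than the genotypes did. The log2 difference was 0.25 ± 0.18 (edgeR, adjusted p = 1.0), and with the replicate block 0.24 ± 0.07 (adjusted p = 0.999), the smallest SE of the 10 genes. In CD25 Low the levels were 544, 544 and 416 CPM in TG, against 453, 520.0 and 348 CPM in WT. Again each same-numbered pair was higher in TG and the groups overlapped, with a log2 difference of 0.19 ± 0.18.

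Calr had 690.2, 638 and 619 CPM in TG High, against 619.8, 606 and 513 CPM in WT High, with overlap between 1 library of each. Its log2 difference was 0.16 ± 0.12 in CD25 High and 0.14 ± 0.12 in CD25 Low. In CD25 Low the levels were 742, 559 and 654 CPM in TG, against 613, 636 and 528 CPM in WT, so that TG held both the highest library and 1 below 2 of the WT libraries.

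Pdia3 had 924, 996 and 809 CPM in TG High, against 913, 860.2 and 731 CPM in WT High, and the groups overlapped. In CD25 Low it had 979, 803 and 876 CPM in TG, against 862, 774 and 696 CPM in WT. The log2 differences were 0.12 ± 0.12 and 0.19 ± 0.12. Pdia4 had 309, 289.6 and 260.4 CPM in TG High, against 271, 251 and 227.3 CPM in WT High, and 303, 236 and 270.5 CPM in TG Low, against 259, 221 and 221.5 CPM in WT Low. Its log2 differences were 0.20 ± 0.12 and 0.21 ± 0.12. For both isomerases every same-numbered pair was higher in TG, in both gates, with overlap between the groups.

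Herpud1, whose product helps to draw misfolded proteins out of the ER, lay the other way. It had 149, 179.9 and 154 CPM in TG High, against 164, 181 and 175 CPM in WT High. In CD25 Low the levels were 149, 167 and 166 CPM in TG, against 149, 176 and 173 CPM in WT. Each TG library was below the WT library of its number, by little, and the fitted log2 differences were -0.11 ± 0.10 and -0.05 ± 0.10. Dnajb9 had 24.3 to 30.2 CPM in TG High, against 23.8 to 31.4 in WT High, and 23.4 to 25.6 in TG Low, against 20.4 to 25.1 in WT Low. Its log2 differences were -0.01 ± 0.14 and 0.06 ± 0.14, and the pairs went in both directions.

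The 3 transcription factors showed no shared direction. Xbp1 had 173, 167 and 163 CPM in TG High, against 172, 196 and 176 CPM in WT High (log2 difference -0.11 ± 0.09), and 172, 144 and 163 CPM in TG Low, against 152, 168.5 and 167.5 CPM in WT Low (-0.03 ± 0.09). Its groups overlapped in both gates. Atf4 had 153, 119 and 182 CPM in TG High, against 99.0, 118 and 176 CPM in WT High, a log2 difference of 0.22 ± 0.21 that rests mostly on the pair numbered 1. In CD25 Low the Atf4 levels were 137, 147 and 154 CPM in TG, against 115, 135.2 and 165 CPM in WT (0.07 ± 0.21). Ddit3, which encodes CHOP, a factor of the death arm of the response, had 24.03 to 35.3 CPM in TG High, against 25.3 to 29.0 in WT High, and 25.2 to 35.8 in TG Low, against 27.6 to 30.3 in WT Low. The log2 differences of Ddit3 were 0.07 ± 0.16 and 0.04 ± 0.16. Ddit3 shares 68 exon bases with Mars on the opposite strand, and these libraries do not tell strands apart.

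**Figure D3:**
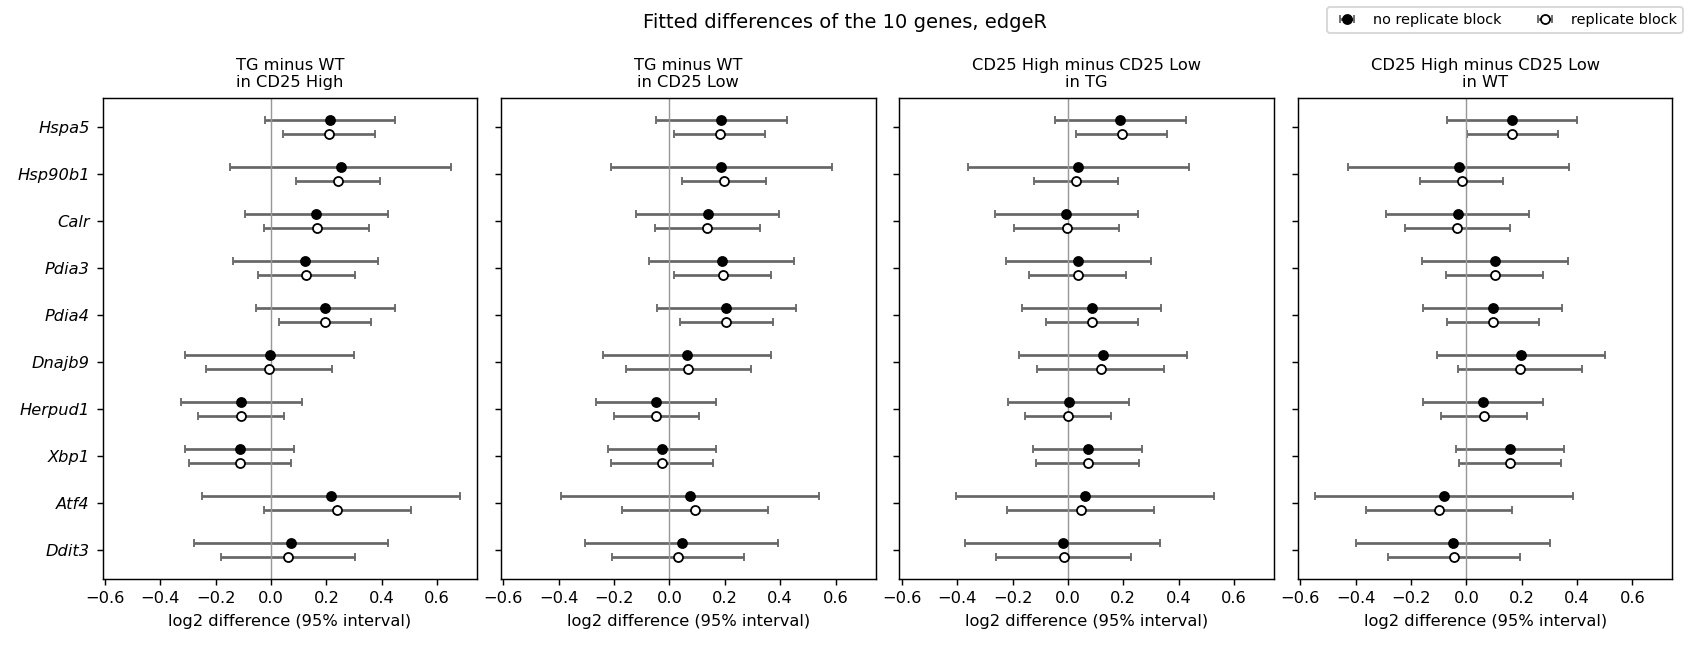
Fitted log2 differences of the 10 genes with 95% intervals (horizontal axis) from edgeR in 4 comparisons, without the replicate block (filled) and with it (open). The chaperones and isomerases lie right of 0 in both TG minus WT panels, and the intervals narrow with the block, most of all for Hsp90b1; no gene was called.

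The same-numbered pairs went 1 way in 3 of 3 for 7 members in CD25 High, 6 of them higher in TG (Hspa5, Hsp90b1, Calr, Pdia3, Pdia4 and Atf4) and Herpud1 lower. Of all tested genes 23.3% did so in either direction. In CD25 Low 5 members did so, Hspa5, Hsp90b1, Pdia3 and Pdia4 higher and Herpud1 lower, against 23.6% of all genes. The median log2 difference over the 10 genes was 0.14 in CD25 High and 0.11 in CD25 Low, where the medians over all genes were 0.01 and 0.0073. The 95% intervals of the 10 genes reached from -0.33 to 0.68 in CD25 High and from -0.39 to 0.59 in CD25 Low, so folds of up to 1.605 in CD25 High and 1.501 in CD25 Low were within the error for single genes. The list of cytosolic and mitochondrial heat shock chaperones also lay higher in TG, with none called. In both gates 14 of 14 had higher fitted values there under each scaling run. The median log2 differences were 0.57 and 0.41, and 0.44 and 0.36 with the replicate block. Their summed level was 2560.0 to 5812 CPM in TG High, against 2444 to 3224 in WT High, and 2586 to 5465 in TG Low, against 2375 to 3540.0 in WT Low. Of the 11 immediate early genes, 11 had higher fitted values in TG in CD25 High and 7 in CD25 Low, and TG High replicate 1, the highest library with a sum of 5342 CPM, stood apart from the other libraries of its number. Without it 9 of 11 were higher in CD25 High.

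Several lists for other cells and states had higher fitted values in TG as well, with no gene called. B cell markers were higher for 14 of 14 tested genes in CD25 High (median log2 difference 0.83) and 13 of 14 in CD25 Low (0.48). Their sums were 453 to 1260.0 CPM in TG High, against 364.5 to 832 in WT High, and 530.1 to 1318 in TG Low, against 443 to 1053 in WT Low. Plasma cell markers were higher for 3 of 3 tested genes in both gates (0.92 and 0.94), and myeloid markers for 8 of 9 in both (1.07 and 0.66). The direction of the myeloid list turned in CD25 High in DESeq2 with the replicate block, where 4 of 9 were higher (-0.15). Plasma cell markers summed to 1.08 to 41.6 CPM in TG High, against 1.13 to 21.2 in WT High, and 1.801 to 32.5 in TG Low, against 1.20 to 20.3 in WT Low. Myeloid markers summed to 84.8 to 145 CPM in TG High, against 86.1 to 106.5 in WT High, and 83.1 to 256.5 in TG Low, against 84.3 to 170.3 in WT Low. Cell cycle genes were higher for 17 of 18 in both gates (0.36 and 0.26), and effector Treg markers for 10 and 11 of 11 (0.37 and 0.41). CD8 T and NK cell markers were higher for 6 and 7 of 12. The sums of every list in this paragraph overlapped between the genotypes. In a fit chosen after seeing the data, TG High replicate 1 was left out, so that WT held the only CD25 High library numbered 1. In CD25 High 0 of 14 B cell markers, 0 of 4 plasma cell markers, 4 of 15 myeloid markers, 1 of 18 cell cycle genes and 1 of 11 effector Treg markers were then higher in TG. In the same fit 14 of 14 heat shock chaperones and 8 of the 10 members were higher, with a median of 0.12 for the members. This fit had no replicate block. B cell markers and cell cycle genes were far higher at number 1, with medians of 3.46 and 3.26 for number 1 minus the mean of 2 and 3. Their turn in CD25 High was thus fixed by the library left out. The fit therefore cannot tell whether the members follow these lists. The part of any of these lists in the members' differences was not tested.

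The second comparison sets the CD25 High cells against the CD25 Low cells of the same genotype. No member was called. Hspa5 had higher levels in CD25 High in every same-numbered pair of both genotypes, with a log2 difference of 0.19 ± 0.11 in TG and 0.16 ± 0.11 in WT (edgeR, adjusted p = 0.999 and 1.0). With the replicate block these were 0.19 ± 0.08 and 0.17 ± 0.08, with adjusted p = 0.295 and 0.528, the lowest of the 10 genes in that fit. Without the block, Xbp1 had a smaller unadjusted p in WT than Hspa5 (0.103 against 0.153, edgeR), and Dnajb9 a larger log2 difference there (0.20 ± 0.14). Without the block, 0 of 10 members were called in TG, against 0.0085% of all genes, and 0 of 10 in WT, against 0.051%. With the block it was 0 of 10 in both, against 1.68% of all genes in TG and 1.63% in WT. DESeq2 called no member with or without the block. At an unadjusted p under 0.05 no member passed without the block, and 1 of 10, Hspa5, passed with it in each genotype, where 12.2% of all genes in TG and 9.22% in WT did.

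Hspa5 and Xbp1 were the 2 of 10 members whose levels did not overlap between the gates in WT, against 8.86% of all genes. WT High held 639 to 705 CPM of Hspa5, against 554 to 617 CPM in WT Low, and 172 to 196 CPM of Xbp1, against 152 to 168.5 CPM in WT Low. In TG no member was without overlap, against 8.07% of all genes, since TG High held 709.5 to 801.5 CPM of Hspa5 and 163 to 173 CPM of Xbp1, against 562 to 743 and 144 to 172 CPM in TG Low. The log2 difference of Xbp1 was 0.07 ± 0.09 in TG and 0.16 ± 0.09 in WT. Pairs of 1 direction were found for 2 members in TG (Hspa5 and Dnajb9, against 31.9% of all genes) and for 5 in WT (Hspa5, Xbp1, Pdia3, Pdia4 and Herpud1, against 34.5%), all higher in CD25 High. Calr, Hsp90b1, Ddit3 and Herpud1 had fitted differences between -0.05 and 0.06 in both genotypes. The intervals of the 10 genes reached from -0.41 to 0.53 in TG and from -0.55 to 0.50 in WT. Over all genes, 578 in TG and 391 in WT had an unadjusted p under 0.05 without the block.

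The third comparison asks whether the genotype difference itself differs between the gates. The fitted difference of effects, CD25 High minus CD25 Low, ran from -0.09 ± 0.13 for Xbp1 to 0.14 ± 0.30 for Atf4. No member of 10 was called, against 0.0% of all genes, without or with the block (0.0% again), and DESeq2 called none. No member and 27 genes in all had an unadjusted p under 0.05. The intervals of the 10 genes reached from -0.52 to 0.80, so the gates are not shown to act alike. The 5 comparisons share libraries with each other and are not independent.

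Members were called between replicate numbers, where none was called between genotypes or gates. In the fit with groups and number together, 5 of 10 members were called for the number (edgeR's quasi-likelihood F test), where 34.3% of all tested genes were. These were Hsp90b1 (adjusted p = 5.89e-05), Atf4 (0.00916), Pdia4 (0.0315), Ddit3 (0.0381) and Pdia3 (0.0387). Herpud1 (0.0505), Hspa5 (0.0583), Dnajb9 (0.065) and Calr (0.112) were not called, and Xbp1 (0.993) had nearly the same mean at each number. DESeq2 called 7 members, Hspa5 and Herpud1 being added, and RLE scaling in edgeR called 6, with Herpud1 added. The 34.3% belongs to the edgeR fit with TMM scaling. No share of all genes is given for the DESeq2 and RLE fits, so their counts have no background here. Of the 93 further ER pathway genes described below, DESeq2 called 40 for the number and edgeR 37. The labels do not say what the number marks.

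Hsp90b1 averaged 498 ± 51.6 CPM in the 4 libraries numbered 1, 535 ± 52.3 in those numbered 2 and 383 ± 31.4 in those numbered 3 (SD, n = 4). All 4 libraries numbered 3, at 348 to 416 CPM, were below all others. The log2 difference was 0.37 ± 0.06 for 1 minus 3 (adjusted p = 0.000339) and 0.48 ± 0.06 for 2 minus 3 (0.000189, edgeR). Atf4 ran the other way, with 126 ± 23.9 CPM at number 1, 129.8 ± 13.8 at number 2 and 169 ± 12.5 at number 3. Its 4 libraries numbered 3, at 154 to 182 CPM, were all above the rest. The log2 differences were -0.44 ± 0.11 for 1 minus 3 and -0.38 ± 0.11 for 2 minus 3 (edgeR, adjusted p = 0.00865 and 0.0324). The calls of both genes in the F test of the number held when any 1 of the 12 libraries was left out. How many of all tested genes separate by number as these 2 do was not counted, so the separation is not particular to them.

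Pdia3 and Pdia4 were highest at number 1. Pdia3 averaged 919.8 ± 47.8, 858 ± 98.4 and 778 ± 80.9 CPM at numbers 1, 2 and 3, and Pdia4 285.5 ± 24.2, 249.5 ± 29.5 and 245 ± 24.2 CPM. Between pairs of numbers, Pdia3 was called for 1 minus 3 (0.25 ± 0.07) and Pdia4 for 1 minus 2 (0.20 ± 0.07) and 1 minus 3 (0.22 ± 0.07). Herpud1 was called for 1 minus 2 (-0.20 ± 0.06), with 153 ± 7.33, 176 ± 6.25 and 167 ± 9.71 CPM at the 3 numbers. Ddit3 averaged 26.8 ± 1.04, 26.3 ± 2.03 and 32.6 ± 3.43 CPM, and Xbp1 167 ± 10.1, 169 ± 21.4 and 168 ± 6.06 CPM. In all, 2 of 10 members were called for 1 minus 2, against 28.3% of all genes, 4 for 1 minus 3, against 21.6%, and 2 for 2 minus 3, against 12.4%. The calls of Ddit3, Pdia3 and Pdia4 in the F test of the number held in 5, 5 and 4 of the 12 fits that left out 1 library. The call of Ddit3 ended without any library numbered 1, or without TG High replicate 3, TG Low replicate 2 or TG Low replicate 3. Those of Pdia3 and Pdia4 both ended without WT High replicate 1, TG Low replicate 1, WT Low replicate 1, TG High replicate 3, WT High replicate 3, WT Low replicate 2 or WT Low replicate 3, and that of Pdia4 also without TG High replicate 1.

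**Figure D4:**
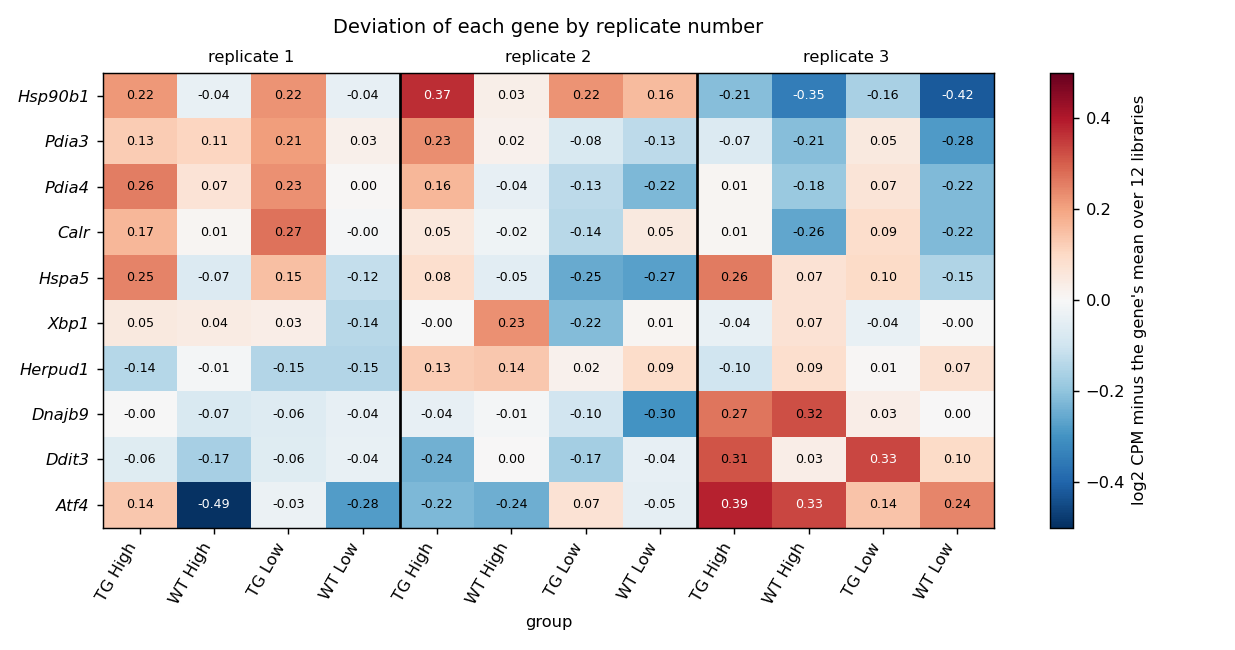
Deviation of each gene from its own mean over the 12 libraries (colour and printed value, log2 CPM), with libraries ordered by replicate number and then by group. Hsp90b1 is below its mean in all 4 libraries numbered 3 (-0.42 to -0.16), where Atf4 and Ddit3 are above theirs.

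Other gene sets moved with the number as well. The 14 heat shock chaperones summed to 2412 to 3365 CPM at number 1, 3224 to 5812 at number 2 and 2375 to 2586 at number 3. The 11 immediate early genes, which respond quickly to stimulation or handling, summed to 1694 to 5342, 1399 to 1703 and 3491 to 4773 CPM. At number 1 the highest sum was that of TG High replicate 1 alone, and the other 3 libraries ended at 1935 CPM. The 14 B cell markers summed to 832 to 1318 CPM at number 1, 529 to 638 at number 2 and 364.5 to 530.1 at number 3. The 8 plasma cell markers, a cell type rich in ER, summed to 20.3 to 41.6 CPM at number 1 and 1.08 to 3.13 at the other numbers. None of these 8 was at 0 in all libraries, Jchain was at 5.80 to 17.6 CPM at number 1, and Ighg2c and Igha were at or near 0 throughout. The 19 myeloid and 12 CD8 T or NK cell markers summed to 106.5 to 257 and 118 to 163 CPM at number 1, against 83.1 to 106 and 58.8 to 94.7 at the other numbers. Single genes held a large part of the B cell and myeloid sums, Ighm at 326 to 797 CPM and Cst3 at 73.9 to 106.5 CPM over all libraries. Cd8b1 gave 26.05 to 35.9 CPM of the CD8 T and NK sum. Within that list Prf1 went the other way, with 12.9 to 15.2 CPM at number 1 and 18.5 to 42.1 elsewhere. The 18 cell cycle genes summed to 477 to 831 CPM at number 1 and 154 to 206.5 at the other numbers, and the 11 effector Treg markers to 627 to 1014 and 223 to 303 CPM. All 18 and all 11 were called for the number (edgeR). The part of these cells and states in the members' differences between numbers was not tested. In bulk libraries, fewer cells of a type and less RNA per cell cannot be told apart.

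The wider ER pathway was read through 5 further lists that hold none of the 10 genes, with 99 genes matched and 93 tested. None was called between genotypes, between gates or for the difference of effects, without or with the block, and DESeq2 called none. Without the block 1 of the 93 had an unadjusted p under 0.05 in TG minus WT in CD25 Low and none in the other comparisons, and with the block 3 (High) and 5 (Low) of 93 did between genotypes, 4 in TG and 1 in WT between gates, and 0 for the difference of effects. The smallest of these p was that of Mthfd2, a mitochondrial folate enzyme, in TG (log2 difference -0.26 ± 0.08, unadjusted p = 0.00617, adjusted p = 0.151 in edgeR). The median log2 difference between TG and WT was 0.07 in CD25 High (68 of 93 above 0) and 0.05 in CD25 Low (66 of 93), where 53.4% and 52.4% of all tested genes were above 0.

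By role, the 18 other ER chaperones and foldases had medians of 0.13 and 0.07 between TG and WT in CD25 High and Low, with 12 and 14 above 0. The 23 genes of the translocon, signal peptidase and oligosaccharyl transferase had 0.08 and 0.07, with 20 and 19 above 0. The 21 genes of ER-associated degradation had 0.06 and 0.05, with 14 above 0 in each gate. The 19 targets of the ATF4 and CHOP branch had 0.09 and 0.08, with 15 above 0 in each gate. The 12 sensors, eIF2 kinases and proximal factors had 0.02 and -0.06, with 7 and 4 above 0. The genes with the smallest p between TG and WT without the block were Sec63, a translocon component, at 0.20 ± 0.09 in CD25 High and Shmt2, a mitochondrial enzyme of serine use, at 0.20 ± 0.09 in CD25 Low, and neither passed (edgeR, adjusted p = 1.0).

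**Figure D5:**
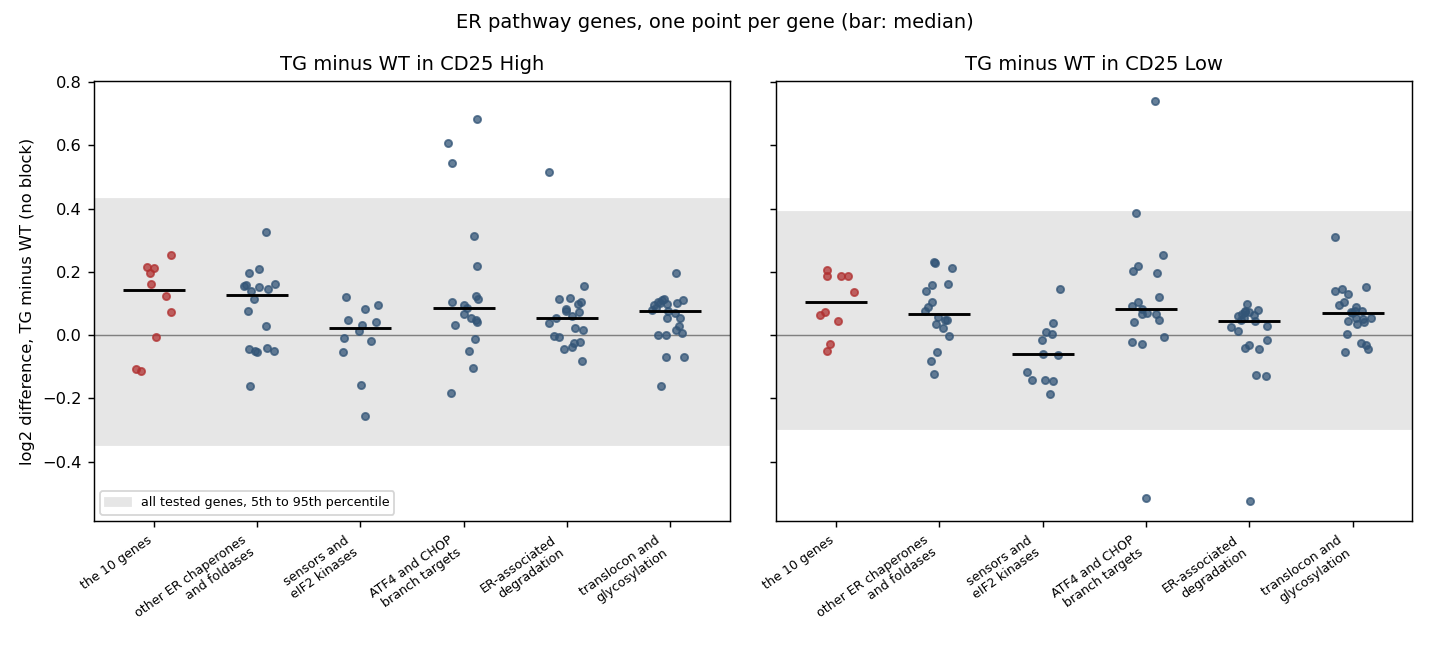
Fitted log2 difference, TG minus WT without the block, of each tested gene of the 10 members (red) and of the 5 further ER lists (blue), in CD25 High and CD25 Low, with a bar at each median. The grey band spans the 5th to 95th percentile of all tested genes; the 10 members lie within it in both gates.

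Between replicate numbers, 37 of the 93 further genes were called, against 34.3% of all genes. Sdf2l1, a partner of BiP, had a log2 difference of 0.70 ± 0.09 for number 1 minus the mean of 2 and 3, and Pdia6, a disulfide isomerase, had 0.34 ± 0.07. Atf6, the sensor itself, had 0.70 ± 0.10, with 25.9 to 33.5 CPM at number 1 and 14.7 to 22.6 CPM elsewhere. Psat1, an enzyme of serine synthesis under ATF4, had 0.74 ± 0.06, with 62.5 to 71.6 CPM at number 1 and 35.6 to 45.2 CPM elsewhere. The groups of libraries did not overlap for either gene, and how many of all tested genes separate this way was not counted. Asns, asparagine synthetase and likewise an ATF4 target, had 0.94 ± 0.24 at a low level of 0.717 to 4.51 CPM. Atf4 itself had -0.25 ± 0.09 in the same contrast and was not called there (edgeR, adjusted p = 0.0616). Psat1 and Asns do not stand for their list. Of its 19 tested genes, 5 were above 0 in this contrast, with a median of -0.10, and 4 were called higher and 4 lower. Nor does Atf6 stand for the 12 sensors, eIF2 kinases and proximal factors. In the same contrast 6 of these 12 were above 0, with a median of -0.0058, and 2 were called higher and 1 lower. Edem1, which marks misfolded glycoproteins for degradation, had -0.29 ± 0.06, against 2.06 ± 0.33 for Derl3, a channel protein of the same route at 0.273 to 2.44 CPM. This contrast can miss genes set apart at number 3. In the ATF4 and CHOP branch list, Ppp1r15a had 395 to 662 CPM at number 3. Elsewhere it had 46.5 to 73.1 CPM, apart from 387 in TG High replicate 1. Cebpb had 13.4 to 27.8 CPM at number 3 and 1.44 to 11.25 elsewhere. For 1 minus 3, 3 of the 19 were called higher and 5 lower, and for 2 minus 3, 2 and 1.

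The members did not form a tight group across the 12 libraries. By the mean absolute difference of centred log2 CPM, Pdia3 and Pdia4 (0.0567), Calr and Pdia4 (0.0591) and Calr and Pdia3 (0.0766) were the nearest pairs. Hsp90b1 and Atf4 (0.374) were the farthest. The genes nearest to the mean of the 10 were Psmb8 (0.0392), Commd7 (0.0395), Ruvbl2 (0.0395), Timm50 (0.0425) and Psme3 (0.0427), out of 8427 genes that averaged 10 CPM or more. This mean ran only from -0.088 in WT Low replicate 3 to 0.099 in TG High replicate 1, so genes that vary little lie near it. Of the genes compared, 12.8% were nearer to it than Hspa5, the nearest member, and 82.7% nearer than Atf4, the farthest. These distances describe likeness over 12 libraries that share their replicate numbers and carry no test.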

How the data were processed

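RNA from 12 libraries was sequenced after RNeasy extraction, SMARTer Ultra Low cDNA synthesis from 10 ng of total RNA and a Nextera XT preparation, per the labels' protocols. The authors deposited raw counts, whole numbers of reads for each Ensembl gene. CASAVA 1.8.2, STAR 2.4, featureCounts 1.4.6 and GRCm38 are named in the submitters' processing notes, with no settings. No strand setting is known, so reads of overlapping genes on opposite strands cannot be told apart (Ddit3 and Mars share 68 exon bases, Pdia3 and Catsper2 share 18), and near-identical copies can be split or lost. Total counts set the depth; they carry no molecular identifiers, and errors here come from the spread between libraries.

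Symbols and exon lengths are from GENCODE vM21 (GRCm38). Ero1a and Ero1b were found as Ero1l and Ero1lb, and Eif2ak1 and Ighd were not matched. Counts were fitted with edgeR 4.0.16 in R 4.3.3 (TMM, filterByExpr with a minimum count of 10, robust glmQLFit and glmQLFTest) over all 12 libraries with the 4 groups as levels, with Benjamini-Hochberg adjustment over 11766 genes at 0.05. The scripts were tested on simulated data. Intervals are 95%, and log2 differences are as fitted. With 3 libraries a group, the smallest two-sided p of an exact permutation test is 0.1, so none was used. Numbers were checked as pairs: deviations from group means correlated at 0.34 to 0.83 between same-numbered libraries of different groups (18 pairs) and at -0.688 to 0.197 otherwise (36 pairs), so the replicate block pairs them; the pairing comes from these data. Alternatives were RLE scaling, no filter, DESeq2 1.42.0, the replicate block and leaving out libraries.

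The 10 members and the gene lists were chosen with earlier results of these data known. Named besides the members were, per list, up to 4 called genes or the 1 with the smallest p, for the replicate number up to 4 with the largest difference of number 1 from the mean of 2 and 3, the marker genes, and the 5 genes most like the members. Jchain, Ighg2c, Igha, Ighm, Cst3, Cd8b1, Prf1, Ppp1r15a, Cebpb, Hspa8, Dnajb1 and Hsp90ab1 were singled out after their values were seen.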

Additional observations from a re-analysis of the deposited data

How the results depend on the processing

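No member was called between genotypes, between gates or for the difference of effects under any of the alternatives run, which gave 1650 log2 differences with a lowest adjusted p of 0.236. Of these, 129 changed sign, none of them called, and 33 moved by more than 1 SE. Hspa5, Hsp90b1, Calr, Pdia3 and Pdia4 kept a positive difference between TG and WT in every setting run in both gates. Unscaled CPM moved 0 of 40 group levels by more than 1 SD. Over all genes, CD25 High minus Low called 1 gene in TG and 6 in WT without the block, 198 and 192 with the replicate block and 63 and 46 with DESeq2, 3 in TG with no filter, and 0 in each without the 4 libraries numbered 1. With the block and without those 4 libraries it called 39 and 49. DESeq2 with the replicate block called 358 genes in TG, 7 for TG minus WT in CD25 High and 2 in CD25 Low. Leaving out 1 library gave 0 to 3 genes in TG and 0 to 7 in WT without the block, 74 to 235 and 87 to 247 with it, and 0 to 2 for TG minus WT in CD25 Low with it. For the replicate number, leaving out 1 library gave 2956 to 4550 genes and 2 to 6 members. The cause of these moves was not tested. The fits with RLE, no filter or DESeq2 together with the block were chosen after seeing the data. Ddit3 and Dnajb9, at 157 and 159 counts in their lowest libraries, are the members that depth limits most.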
